A study of Mus musculus with 12 samples.

Results

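The genes of 7 cell surface molecules with which macrophages address T cells were examined in bone marrow-derived macrophages (BMDMs): the receptor gene Cd40, the B7 co-stimulator genes Cd80, Cd86 and Icosl, the maturation marker gene Cd83, and the checkpoint ligand genes Cd274 (PD-L1) and Pdcd1lg2 (PD-L2). The 7 genes were chosen by name, and all 7 were found among the 43134 genes of the count table. In mm10 (GENCODE M21, strand in parentheses), Cd40 lies at chr2:165055627-165072948 (+), Cd80 at chr16:38455561-38496335 (+), Cd86 at chr16:36603869-36666081 (-), Icosl at chr10:78069302-78083913 (+), Cd83 at chr13:43784775-43803132 (+), Cd274 at chr19:29367455-29388095 (+) and Pdcd1lg2 at chr19:29410919-29471161 (+). The BMDMs came from C57BL/6 mice, were grown in M-CSF (50 ng/mL) over 7 days, and were left unstimulated or exposed to LPS (1 µg/mL) during 6 h. All mice carried a tlr4 gene flanked by loxP sites. The tlr4f/f mice had no Cre, and the tlr4f/f-lysM-cre mice expressed Cre from the lysozyme M locus (Lyz2), which is active in myeloid cells. RNA of 12 libraries was sequenced, 3 for each of 4 groups, and neither the age of the mice nor whether libraries came from separate mice is given in the sources used here, so the p-values measure the spread between these libraries.

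A T cell that meets its antigen needs a further signal before it divides. CD80 and CD86 give this signal through CD28 on the T cell and ICOSL gives one through ICOS, while CD40 on the macrophage is engaged by CD40 ligand of the T cell and in turn raises co-stimulators through NF-kB. PD-L1 and PD-L2 bind PD-1 and restrain the T cell, and CTLA-4 competes with CD28 for CD80 and CD86. CD83 is a surface marker of activated antigen-presenting cells that keeps CD86 and MHC class II at the membrane by opposing the ubiquitin ligase MARCH1. In macrophages most of these genes are known to be switched on through Toll-like receptors and interferons.

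The headings of the columns were set against the targeted gene first. Tlr4 was between 76.9 and 146 CPM (read counts scaled to the library size by the TMM method) under the heading LPS- tlr4f/f and between 94.7 and 117 CPM under LPS- tlr4f/f-lysM-cre. It was between 24.5 and 31.2 CPM under the heading LPS+ tlr4f/f and between 24.4 and 27.4 CPM under LPS+ tlr4f/f-lysM-cre. Lyz2, the gene that carries Cre, was at 5953 to 23323 CPM in the first 2 of these groups and at 10.4 to 75.3 CPM in the other two. Il1b, a cytokine gene that LPS is known to induce, was at most 6.95 CPM under LPS- tlr4f/f and LPS+ tlr4f/f and at least 1633 CPM in the 6 tlr4f/f-lysM-cre libraries. Thus Tlr4 was low in both groups headed LPS+ rather than in both groups headed tlr4f/f-lysM-cre, and Il1b was low in 1 group headed LPS+. The heading LPS- tlr4f/f-lysM-cre may have been exchanged with the heading LPS+ tlr4f/f, so groups are named here by their headings, and each comparison is given with both readings. The Tlr4 count is over the whole transcript, not over the deleted part alone. Replicates of the groups headed LPS- differed far more from each other than those headed LPS+: the biological coefficient of variation was 37.2% for LPS- tlr4f/f, 34.9% for LPS- tlr4f/f-lysM-cre, 8.55% for LPS+ tlr4f/f and 8.75% for LPS+ tlr4f/f-lysM-cre.

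The sequence upstream of the start site was available for 4 of the 7 genes, from RefSeq (GRCm38.p6, the build of mm10), and is shown so that the letters next to the start of these transcripts can be set beside their levels. The stretches end at the start site or at the first annotated exon, they are written 5′ to 3′ on the + strand, and capitals mark the motifs found. Icosl at chr10:78069118-78069301 lies before its first annotated exon, Cd80 at chr16:38458683-38458932 lies within an intron of the annotated gene, Cd274 at chr19:29367391-29367437 lies between Cd274 and the first exon of its neighbour Plgrkt, and Pdcd1lg2 at chr19:29410669-29410918 lies in no gene.
Icosl: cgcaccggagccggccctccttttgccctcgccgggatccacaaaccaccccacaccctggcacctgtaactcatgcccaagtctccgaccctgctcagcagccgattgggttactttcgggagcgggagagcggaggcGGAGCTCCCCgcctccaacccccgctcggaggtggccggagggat
Cd80: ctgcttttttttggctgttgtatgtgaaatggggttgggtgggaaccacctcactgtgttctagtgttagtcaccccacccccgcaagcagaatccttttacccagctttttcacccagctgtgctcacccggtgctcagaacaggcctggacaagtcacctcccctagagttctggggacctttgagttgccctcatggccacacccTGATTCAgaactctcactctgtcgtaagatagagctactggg
Cd274: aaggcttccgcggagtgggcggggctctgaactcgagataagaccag
Pdcd1lg2: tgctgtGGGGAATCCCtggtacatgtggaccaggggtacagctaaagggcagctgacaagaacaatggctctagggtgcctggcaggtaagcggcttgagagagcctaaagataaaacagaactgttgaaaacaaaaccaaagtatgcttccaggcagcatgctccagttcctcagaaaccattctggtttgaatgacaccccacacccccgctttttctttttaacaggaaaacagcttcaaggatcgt
On both strands of the 300-base windows around the start, 4 motifs were searched: the kB motif of NF-kB, the GAS motif of STAT factors (TTCNNNGAA), an IRF motif (GAAA, any 2 bases, GAAA) and the AP-1 motif (TGANTCA). A kB motif starts at position -244 of Pdcd1lg2, where it reads as a match on both strands, and at position -111 of Icosl on the - strand. An AP-1 motif starts at position -42 of Cd80. The 300-base window of Cd274 holds none of the 4. Of 32851 such windows of mouse genes, 8.46% hold the kB motif, 8.3% the GAS motif, 3.44% the IRF motif and 7.81% the AP-1 motif, and a match only describes the letters of the window.

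CD40, the receptor through which T cells license the macrophage, separated the libraries by genotype heading. Cd40 was 0.875, 9.37 and 2.98 CPM in LPS- tlr4f/f, and 839, 1470.0 and 586 CPM in LPS- tlr4f/f-lysM-cre. It was 3.64, 3.27 and 1.8 CPM under LPS+ tlr4f/f and 341, 380.3 and 249 CPM under LPS+ tlr4f/f-lysM-cre. Every library headed tlr4f/f-lysM-cre was therefore above every library headed tlr4f/f. Cd40 was 216-fold higher in LPS- tlr4f/f-lysM-cre than in LPS- tlr4f/f (log2 fold change 7.75, SE 1.06, adjusted p = 0.00295), and 114-fold higher in LPS+ tlr4f/f-lysM-cre than in LPS+ tlr4f/f (6.84, SE 0.34, adjusted p = 3.89e-05). The transcript with the highest total, on which these values rest, is annotated as non-coding (NR_027852.1), and the coding transcript NM_011611.2 held 99.4% of its total, since transcripts share most reads.

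CD80 and CD86, the pair of ligands for CD28, parted between the LPS+ groups but not between the LPS- groups. Cd86 was 1.18, 3.73 and 3.75 CPM in LPS- tlr4f/f, 25.6, 98 and 75.7 CPM in LPS- tlr4f/f-lysM-cre, 1.77, 2.14 and 1.35 CPM in LPS+ tlr4f/f, and 17.7, 15.7 and 12.4 CPM in LPS+ tlr4f/f-lysM-cre. As with Cd40, all libraries headed tlr4f/f-lysM-cre were above all headed tlr4f/f. The difference of Cd86 between LPS- tlr4f/f and the tlr4f/f-lysM-cre group of that heading was 4.51 on the log2 scale (SE 0.68, adjusted p = 0.00406), and that between LPS+ tlr4f/f and the tlr4f/f-lysM-cre group of that heading was 3.15 (SE 0.18, adjusted p = 2.99e-08). Cd80 was 2.11, 2.31 and 1.01 CPM in LPS- tlr4f/f, 13.4, 6.45 and 10.2 CPM in LPS- tlr4f/f-lysM-cre, 3.43, 2.86 and 2.41 CPM in LPS+ tlr4f/f, and 2.58, 2.91 and 2.52 CPM in LPS+ tlr4f/f-lysM-cre. Only the LPS- tlr4f/f-lysM-cre libraries stood above the others for Cd80, while both LPS+ groups overlapped. Cd80 rose by 2.46 on the log2 scale (SE 0.44, adjusted p = 0.00694) from LPS- tlr4f/f to LPS- tlr4f/f-lysM-cre. Cd80 was no longer called there when any 1 of the 6 libraries was left out (adjusted p between 0.0118 and 0.0234). Between LPS+ tlr4f/f and the tlr4f/f-lysM-cre group of that heading its log2 difference was -0.11 (SE 0.19, adjusted p = 0.638), a difference not detected at counts of 106 to 163 per library.

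ICOSL, the ligand of ICOS, differed from Cd80 in where the groups lay apart. Icosl was 9.26, 6.2 and 33.4 CPM in LPS- tlr4f/f, 111, 47.1 and 30.6 CPM in LPS- tlr4f/f-lysM-cre, 2.67, 2.84 and 2.84 CPM in LPS+ tlr4f/f, and 54.6, 63.6 and 55.7 CPM in LPS+ tlr4f/f-lysM-cre. The groups headed LPS- overlapped, whereas both LPS+ groups were far apart, with a 20.9-fold difference (log2 4.39, SE 0.09, adjusted p = 2.02e-12). Between LPS- tlr4f/f and the tlr4f/f-lysM-cre group of that heading the log2 difference of Icosl was 1.95 (SE 0.77, adjusted p = 0.0901). All 3 libraries of LPS+ tlr4f/f were below all 3 of LPS- tlr4f/f, with a log2 difference of -2.52 (SE 0.65), but this did not pass the threshold (adjusted p = 0.0925). DESeq2 gave an adjusted p of 0.000279 for the same difference. In all signed differences here, tlr4f/f-lysM-cre minus tlr4f/f or LPS+ minus LPS- is meant.

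CD83 varied widely between replicates of the groups headed LPS-. Cd83 was 1.51, 8.64 and 28.9 CPM in LPS- tlr4f/f, 61.0, 189.8 and 30.4 CPM in LPS- tlr4f/f-lysM-cre, 14.9, 16.7 and 11.2 CPM in LPS+ tlr4f/f, and 56.5, 57.4 and 34.9 CPM in LPS+ tlr4f/f-lysM-cre. The libraries headed tlr4f/f-lysM-cre were above those headed tlr4f/f at the same LPS heading, with the third replicates of both LPS- groups almost level. Cd83 rose 3.52-fold from LPS+ tlr4f/f to LPS+ tlr4f/f-lysM-cre (log2 1.81, SE 0.26, adjusted p = 0.00233), and the log2 difference between LPS- tlr4f/f and the tlr4f/f-lysM-cre group of that heading was 2.83 (SE 1.13, adjusted p = 0.0928), which DESeq2 called (adjusted p = 0.00415). The call between the LPS+ groups was lost when all 12 libraries entered 1 fit (adjusted p = 0.148).

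Of the checkpoint ligands, PD-L1 was abundant and PD-L2 was near the limit of detection. Cd274 was 25.8, 60.1 and 13.3 CPM in LPS- tlr4f/f, 1203, 1827 and 2287 CPM in LPS- tlr4f/f-lysM-cre, 42.4, 43.4 and 37.0 CPM in LPS+ tlr4f/f, and 586, 625 and 653 CPM in LPS+ tlr4f/f-lysM-cre. The groups headed tlr4f/f overlapped and both tlr4f/f-lysM-cre groups stood apart from them and from each other. Cd274 was 53.2-fold higher in LPS- tlr4f/f-lysM-cre than in LPS- tlr4f/f (log2 5.73, SE 0.69, adjusted p = 0.00192), and 15.3-fold higher in LPS+ tlr4f/f-lysM-cre than in LPS+ tlr4f/f (log2 3.94, SE 0.08, adjusted p = 1.48e-12). Pdcd1lg2 had 0, 14 and 12 counts in LPS- tlr4f/f, 18, 57 and 84 counts in LPS- tlr4f/f-lysM-cre, 7, 9 and 9 counts in LPS+ tlr4f/f, and 16, 51 and 40 counts in LPS+ tlr4f/f-lysM-cre. Its counts were higher in every tlr4f/f-lysM-cre library than in every tlr4f/f library. Pdcd1lg2 rose by 2.31 on the log2 scale from LPS+ tlr4f/f to LPS+ tlr4f/f-lysM-cre (SE 0.53, adjusted p = 0.00212), and its log2 difference between the LPS- groups was 3.42 (SE 1.21, adjusted p = 0.0669), which DESeq2 called (adjusted p = 0.00295). The call between the LPS+ groups was lost when all 12 libraries entered 1 fit (adjusted p = 0.0902). Antisense genes overlap Cd274 (AC119228.1) and Pdcd1lg2 (A930007I19Rik), and whether reads were counted by strand is not given in the sources used here, so reads of these pairs may not be told apart.

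**Figure D1:**
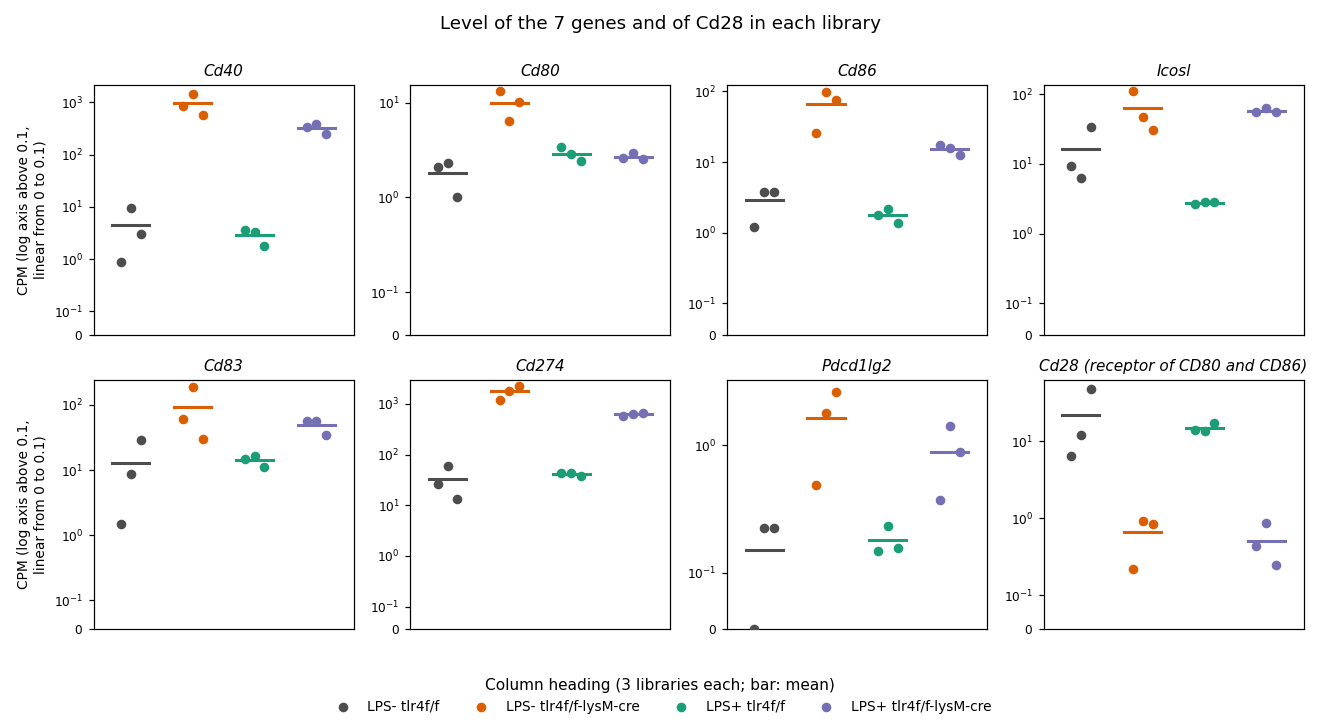
Each panel plots CPM in the 12 libraries by column heading, with points for libraries and bars for group means, on an axis that is logarithmic above 0.1 CPM and linear below. Cd40, Cd86, Cd274 and Pdcd1lg2 are higher in all 6 libraries headed tlr4f/f-lysM-cre, Cd80 only in LPS- tlr4f/f-lysM-cre, and Cd28 is lower in both tlr4f/f-lysM-cre groups.

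Counted by comparison, 4 of the 7 genes were called higher in LPS- tlr4f/f-lysM-cre than in LPS- tlr4f/f (fold change above 2 and adjusted p below 0.01), namely Cd40, Cd80, Cd86 and Cd274. In this comparison 9.26% of all 14638 genes tested were called higher, 7.82% lower and 17.1% in either direction. As headed, it asks how the genotypes differ without LPS, and with the headings exchanged it asks what LPS does in tlr4f/f BMDMs. These calls were close to the threshold: leaving out 1 of the 6 libraries left between 1 and 3 calls, of which only Cd274 was called each time. Over all genes, leaving out 1 library gave 1038 to 1683 calls against 2499 with all 6. Without LPS- tlr4f/f replicate 3 or LPS- tlr4f/f-lysM-cre replicate 2, Cd274 was the 1 call, and the log2 differences of the 4 genes kept their direction.

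In LPS+ tlr4f/f-lysM-cre against LPS+ tlr4f/f, 6 of the 7 genes were called higher, all but Cd80, where 10.8% of 14543 genes were called higher, 10.9% lower and 21.7% in either direction. This is the difference between genotypes under LPS as headed, and the response of tlr4f/f-lysM-cre BMDMs to LPS with the headings exchanged. Without LPS+ tlr4f/f replicate 1, Cd83 (adjusted p = 0.0135) and Pdcd1lg2 (adjusted p = 0.0125) were no longer called. Cd83 was also lost without LPS+ tlr4f/f-lysM-cre replicate 1 (adjusted p = 0.0115) and Pdcd1lg2 without LPS+ tlr4f/f-lysM-cre replicate 2 (adjusted p = 0.0136). Cd40, Cd86, Icosl and Cd274 were called whichever library was left out.

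Between both groups headed tlr4f/f-lysM-cre, 2 of the 7 genes were called, and both were lower in LPS+ tlr4f/f-lysM-cre, where 3.65% of 14237 genes were called lower, 2.42% higher and 6.08% in either direction, and where 26.7% had an adjusted p below 0.05. This comparison is the response of tlr4f/f-lysM-cre BMDMs to LPS as headed, and the difference between genotypes under LPS with the headings exchanged. Cd80 fell by 1.90 on the log2 scale (SE 0.30, adjusted p = 0.00701) and Cd274 had a log2 difference of -1.5 (SE 0.24, adjusted p = 0.00753). Cd40 and Cd86 were also lower in all 3 LPS+ libraries, with log2 differences of -1.55 (SE 0.34, adjusted p = 0.0188) and -2.10 (SE 0.46, adjusted p = 0.0189), which did not pass the threshold, while DESeq2 called both. The log2 differences of Cd83, Pdcd1lg2 and Icosl were -0.89 (SE 0.61), -0.87 (SE 0.71) and -0.10 (SE 0.44). Neither call held without any 1 of the 3 LPS+ tlr4f/f-lysM-cre libraries, with adjusted p between 0.0418 and 0.0492. Without LPS+ replicate 1, 2 or 3, calls over all genes fell from 865 to 4, 7 or 15. Cd274 was not called without LPS- tlr4f/f-lysM-cre replicate 2 (adjusted p = 0.0141), and Cd80 was not called without LPS- tlr4f/f-lysM-cre replicate 3 (adjusted p = 0.0107).

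In LPS+ tlr4f/f against LPS- tlr4f/f, edgeR called none of the 7 genes and 0 of 14704 genes in all, although 24.6% of genes had an unadjusted p below 0.05. DESeq2 called 1 of the 7, Icosl, and 493 of 25154 genes. This comparison is the response of tlr4f/f BMDMs to LPS as headed, and the difference between genotypes without LPS with the headings exchanged. The log2 differences other than that of Icosl were -0.59 for Cd40, 0.69 for Cd80, -0.70 for Cd86, 0.16 for Cd83, 0.32 for Cd274 and 0.26 for Pdcd1lg2, with SE of 0.81, 0.37, 0.47, 0.89, 0.51 and 1.01. Of the 7, Icosl was the 1 gene with an unadjusted p below 0.05 (0.00747). The libraries of both groups did not overlap for Icosl, and neither did they for Cd80. Cd80 was 2.41 to 3.43 CPM in LPS+ tlr4f/f and 1.01 to 2.31 CPM in LPS- tlr4f/f.

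The interaction of genotype and LPS, which is the same number under both readings, was called for none of the 7 genes, against 0.995% of 15778 genes (0.589% higher and 0.406% lower, and 7.01% at an adjusted p below 0.05). The nearest was Cd80, with an interaction of -2.58 on the log2 scale (SE 0.47, adjusted p = 0.0121), followed by Cd274 with -1.82 (SE 0.61, adjusted p = 0.103) and Icosl with 2.43 (SE 0.85, adjusted p = 0.113). For Cd80 the interaction was called by DESeq2 (adjusted p = 5.12e-06) and without LPS- tlr4f/f-lysM-cre replicate 2 (adjusted p = 0.00808). For Cd274 it was called without LPS- tlr4f/f replicate 2 (adjusted p = 0.00879). The 4 comparisons and the interaction share libraries, and their values are therefore not independent of one another.

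**Figure D2:**
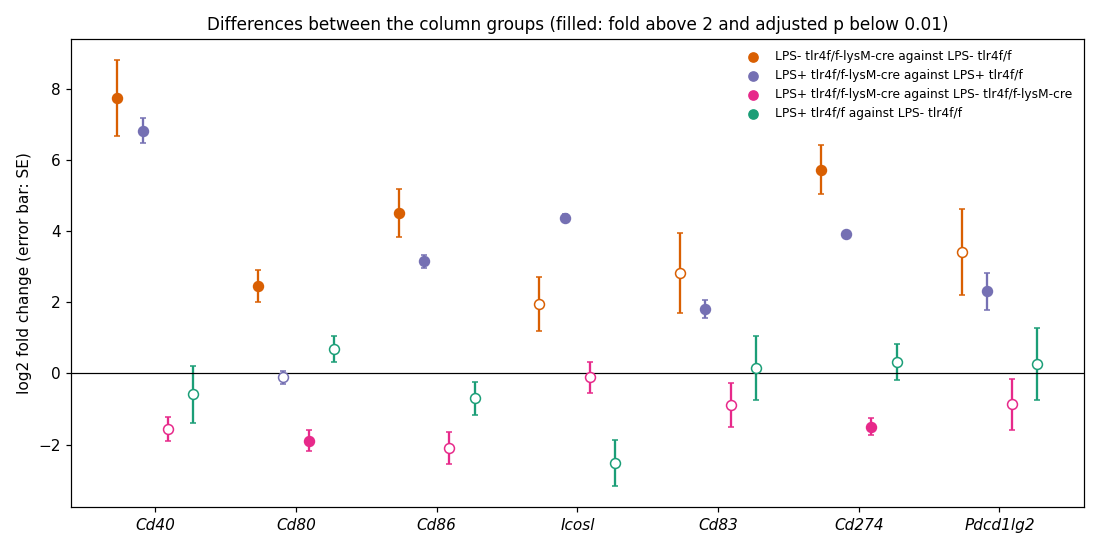
Log2 fold changes of the 7 genes in the 4 comparisons, with error bars of 1 SE and filled points for a fold change above 2 with an adjusted p below 0.01. Cd40 reaches 7.75 and 6.84 in the comparisons of tlr4f/f-lysM-cre with tlr4f/f headings, and Cd80 is the gene that lies at -0.11 between both LPS+ groups.

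On a scale of CPM per kb of transcript, which allows genes to be compared, Cd274 and Cd40 made up most of the mRNA of these molecules in the tlr4f/f-lysM-cre libraries. In LPS- tlr4f/f-lysM-cre, Cd40 was 541 ± 255 and Cd274 487 ± 150 CPM per kb (SD, n = 3), which did not differ beyond their spread. Cd83 (43.8 ± 39.5), Cd86 (26.2 ± 14.6) and Icosl (22.9 ± 15.4 CPM per kb) followed, also within their spread, then Cd80 with 3.44 ± 1.19 and Pdcd1lg2 with 0.476 ± 0.314 CPM per kb. In LPS+ tlr4f/f the order was Cd274 with 11.3 ± 0.9, Cd83 with 6.66 ± 1.31, Cd40 with 1.63 ± 0.54, Icosl with 1.01 ± 0.04, Cd80 with 1.00 ± 0.18, Cd86 with 0.69 ± 0.16 and Pdcd1lg2 with 0.0523 ± 0.0136 CPM per kb. The 7 genes together came to between 12.9 and 32.9 CPM per kb in the libraries headed tlr4f/f and to between 362 and 1473 CPM per kb in those headed tlr4f/f-lysM-cre. Cd40 took 32.3% to 55.9% of this sum in the tlr4f/f-lysM-cre libraries and 3.81% to 17.3% in the tlr4f/f libraries. Cd274 took 34.1% to 61.9% in the former and 11.1% to 55.2% in the latter, where the third replicate of LPS- tlr4f/f was the lowest and had 41.1% of its sum in Cd83. PD-L1 mRNA exceeded PD-L2 mRNA in each of the 12 libraries.

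**Figure D3:**
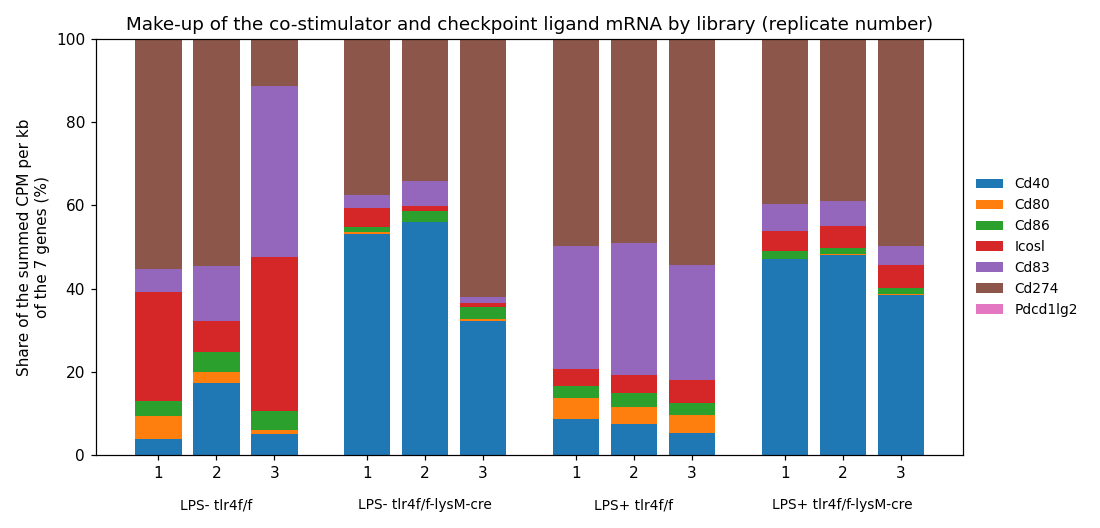
Stacked bars give the share of each of the 7 genes in their summed CPM per kb for each library, labelled by replicate number and heading. The blue share of Cd40 is 32.3% to 55.9% in the 6 tlr4f/f-lysM-cre bars and at most 17.3% in the others, and Pdcd1lg2 is too small to be seen.

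The receptors that these molecules bind on T cells were measured as well. CD40 ligand (Cd40lg) had 0 counts in all 12 libraries, and ICOS, CTLA-4 and PD-1 (Icos, Ctla4, Pdcd1) were too low to be tested. Cd28, by contrast, was 6.48, 11.8 and 47.6 CPM in LPS- tlr4f/f and 14.0, 13.6 and 17.3 CPM in LPS+ tlr4f/f, but 0.215, 0.903 and 0.84 CPM in LPS- tlr4f/f-lysM-cre and 0.437, 0.85 and 0.243 CPM in LPS+ tlr4f/f-lysM-cre. Cd28 was thus lower in all libraries in which Cd86 was higher. Its log2 difference was -5.08 (SE 0.98, adjusted p = 0.00918) between the LPS- groups and -4.91 (SE 0.29, adjusted p = 5.17e-07) between the LPS+ groups. The former was not called without LPS- tlr4f/f replicate 2 or 3, or without any 1 LPS- tlr4f/f-lysM-cre library. Of the 6 T cell markers, Cd3e and Cd3d had at most 2 counts in any library, Cd3g and Cd8a at most 6, while Cd247 (195 to 432 counts) and Cd4 (22 to 114 counts) were present in every library. The part of T cells in the level of Cd28 was not tested.

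Pdcd1lg2 lies 22823 bases downstream of Cd274 on chromosome 19 (mm10), and Plgrkt, a plasminogen receptor gene read in the opposite direction, begins 64 bases from the start of Cd274. Of the neighbours, Jak2, the kinase through which interferon-gamma receptors signal, was 34.3 ± 4.6 CPM in LPS- tlr4f/f, 887 ± 96 CPM in LPS- tlr4f/f-lysM-cre, 38.9 ± 1.0 CPM in LPS+ tlr4f/f and 344 ± 17 CPM in LPS+ tlr4f/f-lysM-cre (SD, n = 3). It was 25.7-fold higher in LPS- tlr4f/f-lysM-cre than in LPS- tlr4f/f (adjusted p = 0.000392) and 8.91-fold higher in LPS+ tlr4f/f-lysM-cre than in LPS+ tlr4f/f (adjusted p = 1.04e-12). Plgrkt, despite its shared upstream stretch with Cd274, had log2 differences of 1.09 (SE 0.26, adjusted p = 0.0197) and 0.23 (SE 0.07) in the same comparisons, where those of Cd274 were 5.73 and 3.94. Ric1, on the far side of Pdcd1lg2, was called higher in LPS- tlr4f/f-lysM-cre (log2 2.49, SE 0.32, adjusted p = 0.00214) and differed by 0.87 on the log2 scale between the LPS+ groups. Insl6 was called higher in LPS- tlr4f/f-lysM-cre (2.15, SE 0.37, adjusted p = 0.00583) and had a log2 difference of -0.14 (SE 0.19) between the LPS+ groups, and Ermp1 had log2 differences of -0.98 and -0.60. The call of Insl6 was lost without any 1 of the 6 libraries, and that of Ric1 without LPS- tlr4f/f-lysM-cre replicate 3 (adjusted p = 0.01001).

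**Figure D4:**
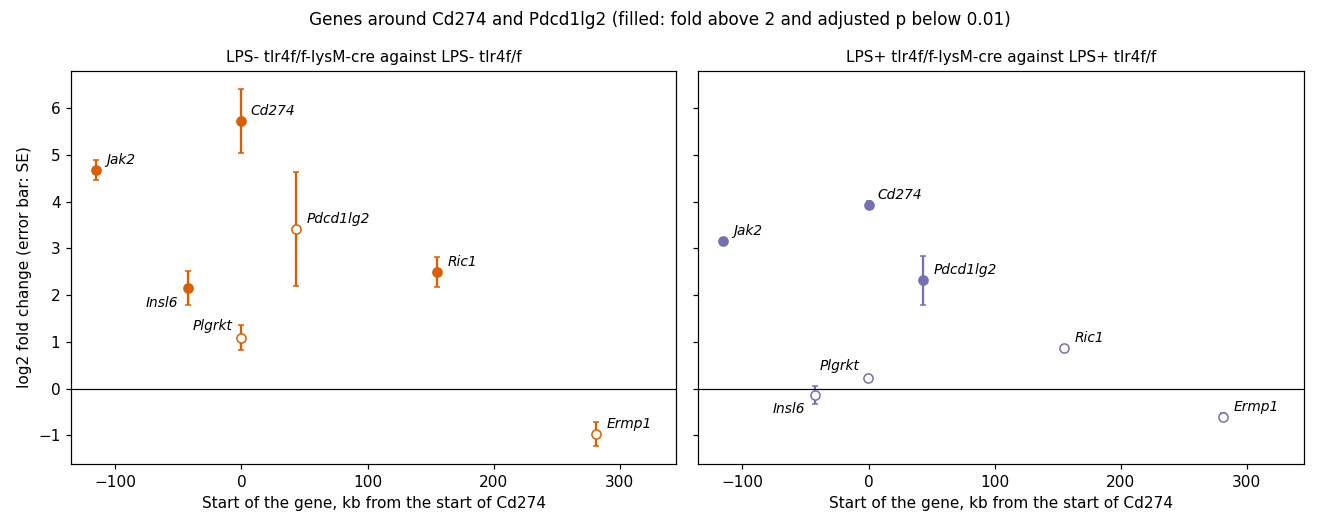
Log2 fold changes (error bars of 1 SE) of the genes around Cd274 and Pdcd1lg2 against the distance of their start from that of Cd274 in kb, for the comparison of the LPS- groups (left) and of the LPS+ groups (right), filled where the fold change is above 2 with an adjusted p below 0.01. Cd274 at 5.73 and 3.94 and Jak2 at 4.68 and 3.16 stand above the genes between and beyond them, and Plgrkt at the same start position lies at 1.09 and 0.23.

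The pathways known to drive these genes were followed in 2 lists. For comparison, 9.26% of all genes tested were called higher between the LPS- groups and 10.8% between the LPS+ groups. Of 13 genes of CD40 and NF-kB signalling, 9 were called higher and 1 lower in LPS- tlr4f/f-lysM-cre against LPS- tlr4f/f, with a median log2 difference of 2.00 over the list and -0.08 over all genes tested. Traf1, an adaptor of CD40, rose by 4.85 on the log2 scale and Nfkb2, the precursor of the p52 subunit, by 4.24, while Map3k14, the kinase NIK that triggers its processing, fell by 1.55, a call lost in 5 of 6 cases when a library was left out. In LPS+ tlr4f/f-lysM-cre against LPS+ tlr4f/f, 8 were called higher and none lower (median 1.57 against -0.02 over all genes), with Traf1 at 3.88 and Nfkb2 at 3.26. In LPS+ tlr4f/f-lysM-cre against LPS- tlr4f/f-lysM-cre, Traf5 rose by 1.58 while Traf1 fell by 2.41, and Nfkb2 and Birc3 were also called lower. Of 13 JAK-STAT and IRF genes, 10 were called higher in the first of these comparisons and 8 in the second, with medians of 1.53 and 1.08, and in neither was any called lower. Of the 10, 6 were still called without any 1 LPS- tlr4f/f library or without LPS- tlr4f/f-lysM-cre replicate 2, and 7 and 9 without LPS- tlr4f/f-lysM-cre replicates 1 and 3, with Jak1, Tyk2, Irf2 and Ifngr2 each lost in 5 of 6 cases, while all 8 of the second comparison were called whichever library was left out. Besides Jak2, these included Irf1, a factor known to act on the Cd274 promoter, with log2 differences of 2.98 and 2.33, and Stat2 with 2.53 and 2.41. Jak2, Stat2 and Stat3 were called lower in LPS+ tlr4f/f-lysM-cre than in LPS- tlr4f/f-lysM-cre, with log2 differences of -1.35, -1.10 and -1.81. Every call of these lists between both tlr4f/f-lysM-cre groups was lost without any 1 of the 3 LPS+ libraries, where calls over all genes fell from 865 to 4, 7 or 15.

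Other ligands that act on T cells were compared as 3 lists, none of whose genes was called in LPS+ tlr4f/f against LPS- tlr4f/f. Among all genes tested, 9.26% were called higher and 7.82% lower between the LPS- groups. Between the LPS+ groups these shares were 10.8% and 10.9%. Of 7 TNF superfamily co-stimulatory ligands, 6 were tested between the LPS- groups, and 3 were called higher in LPS- tlr4f/f-lysM-cre: Tnfsf15 (TL1A; log2 8.56, SE 0.80), Tnfsf4 (OX40 ligand; 5.63, SE 1.01) and Tnfsf9 (4-1BB ligand; 2.84). Between the LPS+ groups, Tnfsf15 (4.73, SE 0.21) and Tnfsf4 (2.87) were called higher and Tnfsf14 (LIGHT) lower, with a log2 difference of -2.96 (SE 0.41). Of 8 other checkpoint ligands, 7 were tested and 4 were called higher in each of both comparisons. In the LPS- groups these were Cd200 (3.85, SE 0.47), Nectin2 (2.87, SE 0.45), Tnfrsf14 (2.49) and Lgals9 (2.21), and in the LPS+ groups Tnfrsf14 (2.85, SE 0.07), Lgals9 (1.94, SE 0.08), Nectin2 (1.79) and Pvr (1.31). Among the remaining B7-related ligands, Vsir (VISTA), a checkpoint molecule known from resting myeloid cells, was called lower in LPS- tlr4f/f-lysM-cre (-1.56, SE 0.20, adjusted p = 0.00221) and in LPS+ tlr4f/f-lysM-cre (-1.56, SE 0.08, adjusted p = 1.92e-08) than in the tlr4f/f group of the same LPS heading. Between both tlr4f/f-lysM-cre groups, Tnfsf9 was called lower under LPS+ (-3.49, SE 0.22) and so was Cd200 (-1.41, SE 0.22). Several of these calls were lost when 1 library was left out. Between the LPS- groups, Tnfsf4 and Lgals9 were not called in 5 of 6 cases, Nectin2 in 4 and Vsir in 2. Thus 2 of the 4 checkpoint ligands were still called without LPS- tlr4f/f replicate 1 or 2 or LPS- tlr4f/f-lysM-cre replicate 1. Calls over all genes also fell in these 6 cases, from 2499 to between 1038 and 1683. Between both tlr4f/f-lysM-cre groups, neither Tnfsf9 nor Cd200 was called without any 1 of the 3 LPS+ libraries. There calls over all genes fell from 865 to 4, 7 or 15. Tnfsf15 was called whichever library was left out of the comparisons of the LPS- or of the LPS+ groups.

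**Figure D5:**
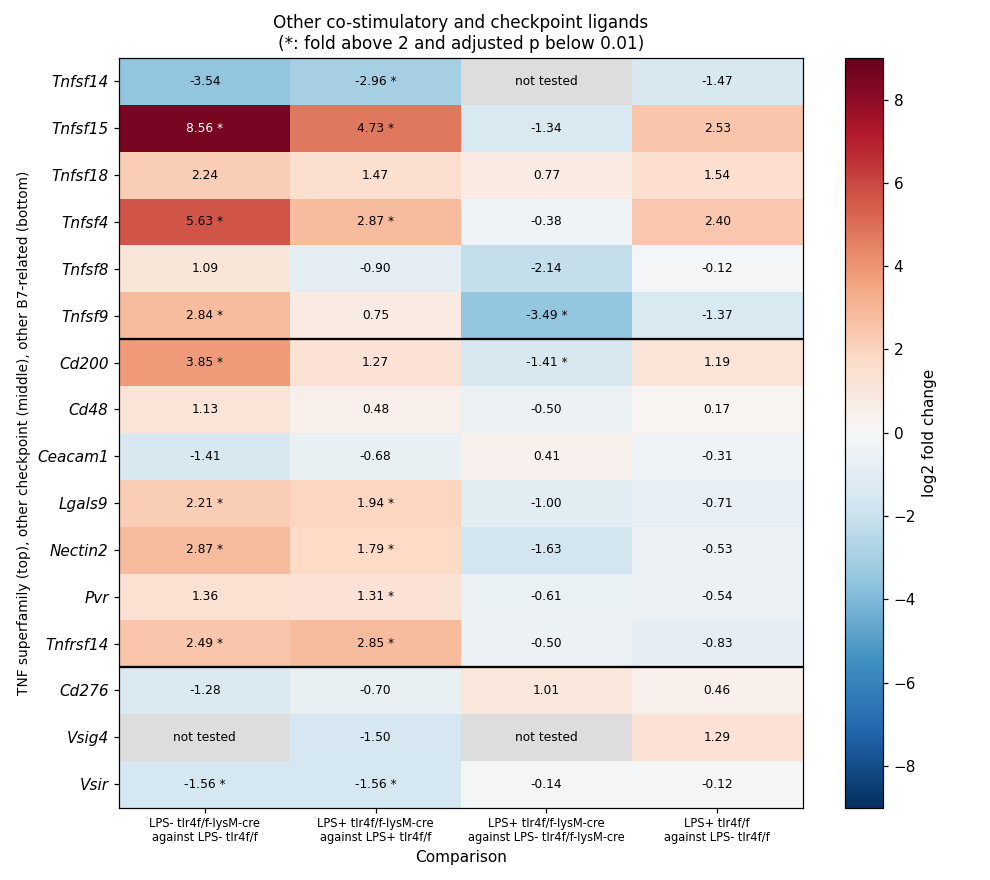
Log2 fold changes of the other ligands tested, by list (rows) and comparison (columns), where red is higher and blue lower in the first-named group, an asterisk marks a fold change above 2 with an adjusted p below 0.01, and grey cells were not tested. Tnfsf15 (8.56) and Tnfsf4 (5.63) have the darkest red cells of the first column, and Vsir is at -1.56 in both of the first 2 columns.

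Proteins that set how long CD86 and PD-L1 stay at the surface formed the last list, of 6 genes. Between the LPS- groups 2 of the 6 were called, where 17.1% of all genes were called in either direction. Between the LPS+ groups 3 of the 6 were called, where the share of all genes was 21.7%. Cmtm6, which protects PD-L1 from degradation, rose by 1.65 on the log2 scale (SE 0.31, adjusted p = 0.008) in LPS- tlr4f/f-lysM-cre against LPS- tlr4f/f, and its relative Cmtm4 fell by 1.70 (SE 0.29, adjusted p = 0.0058). Between the LPS+ groups, Cmtm6 was called higher (1.00), Cmtm4 lower (-1.18, SE 0.08) and Marchf1, the ligase of CD86 that CD83 opposes, higher (1.21, SE 0.23, adjusted p = 0.00706). Leaving out each library in turn, Cmtm4 and Cmtm6 were not called in 5 of 6 cases between the LPS- groups, and Marchf1 and Cmtm6 in 4 of 6 between the LPS+ groups, while Cmtm4 was called in all 6 of the latter.

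The cultures were checked for markers of other cells, whose RNA would count toward the same values. The share of all genes called higher was 9.26% between the LPS- groups and 10.8% between the LPS+ groups. Called lower were 10.9% between the LPS+ groups and 3.65% between both tlr4f/f-lysM-cre groups. The sum of 8 macrophage markers was 5161 to 7285 CPM in LPS- tlr4f/f and 8632 to 10390 CPM in LPS- tlr4f/f-lysM-cre. It was 4085 to 4463 CPM in LPS+ tlr4f/f and 5849 to 6062 CPM in LPS+ tlr4f/f-lysM-cre. Only 1 of the 8, Adgre1, was called, in the comparison of the LPS+ groups (log2 1.76). Of 8 dendritic cell markers the sum was 0.412 to 8.78 CPM in LPS- tlr4f/f, 67.9 to 302 CPM in LPS- tlr4f/f-lysM-cre, 1.04 to 1.68 CPM in LPS+ tlr4f/f and 14.2 to 17.9 CPM in LPS+ tlr4f/f-lysM-cre. Like Cd40 and Cd274, the sum was highest in LPS- tlr4f/f-lysM-cre and next highest in LPS+ tlr4f/f-lysM-cre. Within LPS- tlr4f/f-lysM-cre the sum was 302, 163 and 67.9 CPM in replicates 1, 2 and 3. Icosl fell likewise, from 111 CPM in replicate 1 to 30.6 CPM in replicate 3. Cd274 rose from 1203 CPM in replicate 1 to 2287 CPM in replicate 3, and Pdcd1lg2 rose too. Cd40, Cd80, Cd83 and Cd86 neither rose nor fell throughout. Xcr1, a receptor gene of cross-presenting dendritic cells, was 0.145 ± 0.114, 4.003 ± 1.431, 0.206 ± 0.125 and 2.45 ± 0.35 CPM in the same order (SD, n = 3), and was called higher in LPS- tlr4f/f-lysM-cre against LPS- tlr4f/f (log2 4.75, adjusted p = 0.00652) and in LPS+ tlr4f/f-lysM-cre against LPS+ tlr4f/f (3.62, adjusted p = 5.01e-06). In the former 1 of 3 dendritic cell markers tested was called higher (median 4.75), and in the latter 3 of 5 (median 1.74), with Fscn1 at 4.86 and Ccr7 at 1.74. Fscn1, which made up most of the sum in the tlr4f/f-lysM-cre libraries, was also called lower in LPS+ tlr4f/f-lysM-cre against LPS- tlr4f/f-lysM-cre (-3.78). The other 4 of the 8 markers besides Flt3 were low. Flt3 had at most 2 counts in any library and Cd209a at most 4. Clec9a, another marker of cross-presenting dendritic cells, averaged 0.0865, 0.209, 0.3 and 0.207 CPM in the same order of groups. The highest group means of Zbtb46 and Dpp4 were 0.434 and 0.144 CPM, both in LPS- tlr4f/f-lysM-cre. The sum of 6 fibroblast markers was 9.13 to 669 CPM in LPS- tlr4f/f, 188 to 1509 CPM in LPS- tlr4f/f-lysM-cre, 20.6 to 25.1 CPM in LPS+ tlr4f/f and 44.6 to 56.8 CPM in LPS+ tlr4f/f-lysM-cre, with 2 of 6 called higher between the LPS+ groups (Pdgfrb, log2 4.81, and Pdgfra, 1.77). Between both tlr4f/f-lysM-cre groups, where Cd80 and Cd274 were lower under LPS+, 3 of 6 fibroblast markers were called lower under LPS+ (Col1a1, log2 -5.11, Col1a2, -4.75, and Pdgfrb, -1.66), and all 6 were lower at an adjusted p below 0.05. That of 7 neutrophil markers was 0.562 to 13.2, 14.6 to 185.5, 4.57 to 6.65 and 5.39 to 7.59 CPM in the same order of groups, with Camp (log2 3.31) and S100a8 (1.06) called higher and Mpo (-1.92) called lower between the LPS+ groups. Sums of 5 B cell markers were at most 1.96 CPM and those of 6 T cell markers 5.12 to 10.8 CPM, mostly Cd247. The part of these cells in the differences of the 7 genes was not tested, and in such bulk samples fewer cells of a type and less RNA per cell cannot be told apart.

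Across the 12 libraries, the genes whose log2 CPM followed each of the 7 most closely were, of 15771 compared, Gca (Pearson's r = 0.992) and 6530402F18Rik (0.989) for Cd40, Fosl2 (0.968) and Rbbp6 (0.957) for Cd80, Cept1 (0.990) and Slamf7 (0.989) for Cd86, Sema4a (0.970) and Camkk2 (0.966) for Icosl, Fam20b (0.964) and Crebl2 (0.957) for Cd83, Gm36043 (0.997) and Casp4 (0.994) for Cd274, and Pgam2 (0.956) and Nlrc4 (0.950) for Pdcd1lg2. Among the 7 genes themselves, r was highest between Cd40 and Cd274 (0.972) and lowest between Cd80 and Icosl (0.347). These correlations are descriptions, since the 12 libraries fall into 4 groups and share their differences between groups.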

How the data were processed

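PolyA RNA-seq of BMDMs was analysed from the deposited table of read counts. The authors trimmed reads (Trimmomatic 0.36 per the submitters' processing notes), mapped them with HISAT2 (mm10) and used HTSeq to assign them to transcripts. The labels name both polyA sequencing and rRNA removal. The deposited values are whole-number counts of 115140 transcripts without normalization. Transcripts of a gene share reads, so only that with the highest total was kept (43134 genes, 33581450 to 56451843 counts per library). Of 51 gene names that a spreadsheet had turned into dates, 45 were restored by accession. Replicates differed by more than sampling noise.

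Tests were edgeR's robust quasi-likelihood test (edgeR 4.0.16 in R 4.3.3, filterByExpr, TMM) on the 6 libraries of a comparison, or 12 for the interaction, with Benjamini-Hochberg adjustment over all genes tested, and were tried on simulated data. The study's thresholds were used, a fold above 2 together with adjusted p under 0.01, but edgeR in place of its DESeq. Gene positions are from GENCODE M21.

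The genes and lists were chosen with earlier results of these data known. Named are the 7 genes, Tlr4, Lyz2 and Il1b, the neighbours of Cd274, per list and comparison up to 2 called genes with the largest change (groups apart, and no library of the higher group under 10 counts), and for each of the 7 genes the 2 with the highest Pearson's r (log2 CPM, prior count of 2). Other list genes were named after their values were seen. Alternatives were RLE factors, DESeq2 1.42.0, no filter beyond 1 count, a block for the replicate number, adjusted p under 0.05 with no fold minimum, 1 fit of 12 libraries, sums over transcripts, each library left out, exchanged headings and, chosen after seeing the data, the second transcript of Cd40, Cd80, Cd83 and Cd86.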

Additional observations from a re-analysis of the deposited data

Results flagged for a closer look

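The interaction of genotype and LPS passed both thresholds for 3 genes of the lists, each by a test of the difference itself in edgeR over 12 libraries. Over all genes, 157 of 15778 (0.995%) passed both. As headed, the LPS difference in tlr4f/f-lysM-cre minus that in tlr4f/f was -2.12 on the log2 scale for Tnfsf9 (SE 0.35, adjusted p = 0.00861), -1.55 for Jak2 (SE 0.18, adjusted p = 0.00194) and -1.35 for Stat3 (SE 0.22, adjusted p = 0.00758), and exchanging the headings leaves the numbers as they are. Over the alternatives the interaction ranged from -2.33 to -1.86 for Tnfsf9, from -1.63 to -1.42 for Jak2 and from -1.5 to -1.14 for Stat3. Leaving out each of the 12 libraries in turn, the call was lost in 10 cases for Tnfsf9, in 9 for Stat3 and, without any 1 of the 6 libraries headed LPS+, in 6 for Jak2, with adjusted p up to 0.0338, 0.0333 and 0.0136. Without any 1 library headed LPS+, calls over all genes also fell, from 157 to between 10 and 21.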

How the results depend on the processing

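Of 490 alternative values of the 7 genes, 434 kept their direction and their side of the threshold, 35 kept the direction but were no longer called, 12 were newly called and 9 changed sign, and of 990 for called list genes and neighbours 813 kept their call, 177 lost it and none changed sign. Leaving out 1 library gave between 1 and 3 calls of the 7 in LPS- tlr4f/f-lysM-cre against LPS- tlr4f/f, 0 to 3 in LPS+ tlr4f/f-lysM-cre against LPS- tlr4f/f-lysM-cre, 4 to 6 in LPS+ tlr4f/f-lysM-cre against LPS+ tlr4f/f, 0 in LPS+ tlr4f/f against LPS- tlr4f/f and 0 to 1 in the interaction. With the headings exchanged the counts of LPS in tlr4f/f, LPS in tlr4f/f-lysM-cre, genotype without LPS and genotype with LPS became 4, 6, 0 and 2, and that of the interaction stayed at 0. DESeq2, which tested more genes than edgeR, called 1 of the 7 (493 of 25154 genes) for LPS+ tlr4f/f against LPS- tlr4f/f. It called 4 (2177 of 24520 genes, against 865 of 14237) for LPS+ tlr4f/f-lysM-cre against LPS- tlr4f/f-lysM-cre. For the interaction it called 1 (635 of 26855 genes, against 157 of 15778). In LPS- tlr4f/f-lysM-cre against LPS- tlr4f/f it called 6 against 4 of the 7 (4185 of 25267 genes, against 2499 of 14638), where Cd83 and Pdcd1lg2 were newly called. An adjusted p below 0.05 without a fold minimum called 175 genes in LPS+ tlr4f/f against LPS- tlr4f/f, and 1106 to 8930 elsewhere. Of the 7, it called 4 for LPS+ tlr4f/f-lysM-cre against LPS- tlr4f/f-lysM-cre and 1 for the interaction, and the other counts stayed. Without a filter beyond 1 count, 2 were called for LPS- tlr4f/f-lysM-cre against LPS- tlr4f/f, where more genes are tested, and 1 for the interaction, and the second transcript, chosen after seeing the data, gave 1 for the interaction. All 12 libraries in 1 fit gave 1 call for LPS+ tlr4f/f-lysM-cre against LPS- tlr4f/f-lysM-cre, and of all genes 4255 for LPS- tlr4f/f-lysM-cre against LPS- tlr4f/f, 2052 against 3163 (4 against 6 of the 7, without Cd83 and Pdcd1lg2) for LPS+ tlr4f/f-lysM-cre against LPS+ tlr4f/f and 75 for LPS+ tlr4f/f against LPS- tlr4f/f, where no filter gave 34. Without 1 library, the genes called in all were 4 to 1180 between both tlr4f/f-lysM-cre groups (4, 7 and 15 without LPS+ replicates 1, 2 and 3), 1038 to 1683 between the LPS- groups, 0 to 184 between both tlr4f/f groups (184 without LPS- tlr4f/f replicate 3) and 10 to 308 for the interaction. The cause was not tested.

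Same-numbered libraries had correlations from -0.0381 to 0.472, above 0.1 in 5 of 18 pairs, so pairing by replicate number was not settled. Between the LPS- groups r was 0.472, 0.34 and 0.014 for same numbers and -0.491 to 0.204 for different numbers. Between the LPS+ groups r was 0.0584, 0.0725 and 0.191 for same numbers and -0.114 to 0.0448 for different numbers. With the replicate block, 0 of the 7 (212 of all genes) were called in LPS+ tlr4f/f-lysM-cre against LPS- tlr4f/f-lysM-cre and 3 in LPS- tlr4f/f-lysM-cre against LPS- tlr4f/f, the other counts stayed, and the log2 difference of Icosl in the former turned to 0.12. Signs also changed when 1 library was left out, only for values that were not called. In LPS+ tlr4f/f against LPS- tlr4f/f the ranges were -1.07 to 0.62 for Cd40, -0.37 to 1.49 for Cd83, -0.066 to 1.08 for Cd274 and -0.31 to 0.70 for Pdcd1lg2. In LPS+ tlr4f/f-lysM-cre against LPS- tlr4f/f-lysM-cre they were -1.34 to 0.12 for Cd83 and -0.45 to 0.57 for Icosl, and in LPS+ tlr4f/f-lysM-cre against LPS+ tlr4f/f -0.24 to 0.037 for Cd80. Depth limits Pdcd1lg2, at 0 to 84 counts in any library, and in the tlr4f/f libraries also Cd40, Cd80 and Cd86, whose lowest counts were 51, 54 and 69.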
